A study of Mus musculus with 4 samples.

Results

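The 10 genes described here encode immediate early transcription factors and close companions of their response, and were followed through the cell types of the aged mouse kidney: Fos, Fosb, Jun, Junb, Jund, Egr1, Atf3, Ier2, Nr4a1 and Klf6. They were chosen by symbol, with earlier results of these data known, and 10 of 10 symbols were found among the 31054 features of the count tables. The related gene lists and the markers were chosen in the same way. Shares of all genes set beside counts of these genes or lists are therefore a description. The animals were male C57BL/6 mice aged 19 months that received either BPTES, which inhibits the glutaminase GLS1, or the vehicle DMSO for 1 month. Each group comprised 2 libraries, and no dose was given in the sources used here. Kidneys were minced, digested with liberase and sorted on CD45, and the sorted fractions were mixed for each library so that CD45-positive cells made up 31.0%. The comparison asks which transcripts of each kidney cell type differ under the inhibitor. The labels call the libraries of a group sample 1 and sample 2 without naming separate animals, so the p-values measure the spread between these libraries, which may be technical.

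Immediate early genes are transcribed within minutes of a stimulus, without prior protein synthesis, when kinase cascades and calcium or cAMP signals activate factors already bound at their promoters. Fos and Jun family proteins pair to form AP-1, Atf3 is a stress-induced member of the ATF/CREB family, Egr1 is a zinc finger factor, and Nr4a1 is an orphan nuclear receptor. Ier2 is a small nuclear protein of the immediate early response, and Klf6 is a Krüppel-like zinc finger factor. In the kidney these genes are known for their response to ischaemia, flow and injury, and in any tissue for their response to enzymatic dissociation. The fractions mixed for a library came from 1 tissue, per the labels, and the sources used here give no handling time per library.

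The libraries held 17907 to 20091 barcodes and 249881074 to 297947661 UMIs, and 10849 to 12076 cells per library were kept, 46738 in all. Library pairs shared between 90 and 114 barcodes. Cells were grouped into 55 clusters without the genes described here, and 47 clusters were named by marker genes, each name standing for cells like that type. Proximal tubule (20891 cells), T cells (3602), macrophages (3521), endothelium (3078), dendritic cells (1834), monocytes (1632), B cells (1312) and neutrophils (1152) were tested. Raw UMIs were summed per library and class, which gave 94770993 to 114900714 UMIs per library in proximal tubule and 5687365 to 13623441 in endothelium. Levels are in CPM, the UMIs of a gene per 1000000 in its class after TMM scaling. A log2 fold change is that of the BPTES level against the DMSO level. A gene was called where the adjusted p of edgeR's quasi-likelihood test was under 0.05 over all genes of the class.

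The bases before the start site of 4 of these genes are shown because of their calls in the reported fits. There Junb was called lower in proximal tubule and Atf3 was called lower in endothelium. Fos was called only in the difference of effects between those classes and leukocytes, while Nr4a1 was called in none of these fits. The windows are the 250 bases before the start site, from RefSeq on GRCm38.p6 (the mm10 assembly of the count tables), 5′ to 3′ on the gene's strand. A window was matched for 8 of the 10 genes, and Egr1 and Ier2 had none. Capitals mark the core of the cAMP response element (CRE), TGACG or its complement, and the EGR site, GCGNGGGCG or its complement.
Fos, chr12:85473640-85473889, plus strand: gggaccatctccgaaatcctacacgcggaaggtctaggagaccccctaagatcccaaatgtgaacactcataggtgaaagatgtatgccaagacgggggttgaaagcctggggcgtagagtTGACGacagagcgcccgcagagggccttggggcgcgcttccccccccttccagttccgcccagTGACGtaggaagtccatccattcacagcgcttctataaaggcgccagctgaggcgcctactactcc
Junb, chr8:84978749-84978998, minus strand: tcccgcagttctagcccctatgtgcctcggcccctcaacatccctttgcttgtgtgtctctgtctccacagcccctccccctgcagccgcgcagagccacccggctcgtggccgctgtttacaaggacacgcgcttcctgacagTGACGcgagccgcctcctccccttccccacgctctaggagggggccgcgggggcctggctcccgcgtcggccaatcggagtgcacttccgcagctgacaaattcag
Atf3, chr1:191183334-191183583, minus strand: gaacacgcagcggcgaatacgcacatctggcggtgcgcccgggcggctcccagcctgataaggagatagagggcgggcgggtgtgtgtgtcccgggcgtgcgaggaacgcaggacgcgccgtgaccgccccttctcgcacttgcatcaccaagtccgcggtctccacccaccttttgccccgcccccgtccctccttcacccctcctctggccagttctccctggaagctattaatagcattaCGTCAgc
Nr4a1, chr15:101266596-101266845, plus strand: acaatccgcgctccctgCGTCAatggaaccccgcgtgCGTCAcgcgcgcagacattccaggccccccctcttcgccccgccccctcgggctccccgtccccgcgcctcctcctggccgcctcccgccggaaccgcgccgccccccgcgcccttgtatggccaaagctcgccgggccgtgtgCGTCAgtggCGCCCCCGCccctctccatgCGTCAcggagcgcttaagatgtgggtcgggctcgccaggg

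The CRE core was found on either strand in 5 of the 8 windows (Fos, Fosb, Junb, Atf3 and Nr4a1) and in 17.8% of 32851 RefSeq windows of the same length. Nr4a1 held 4 cores, Fos held 2, and Fosb, Junb and Atf3 held 1 each. The EGR site was present in the Fosb and Nr4a1 windows and in 4.70% of all windows. Neither the whole CRE (TGACGTCA, 1.55% of all windows), nor the AP-1 site (TGANTCA, 6.75%), nor the CArG box bound by serum response factor (1.47%) matched in any of the 8 windows. These matches cover neither Egr1 and Ier2 nor bases further upstream of the windows. The whole CRE contains the core, so these matches overlap by construction. The Nr4a1 window thus held the most CRE cores of the 4 printed, and its level is among those that were not called in any class in the reported fits. A match is a description of letters and was not tested for binding.

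Levels of the 10 genes differed widely between classes, and proximal tubule held the lowest mean of the 12 classes with at least 50 cells in every library for 7 of the 10. The exceptions were Fosb, Jun and Klf6, which were lowest in connecting tubule. In this ordering, levels are UMIs per 1000000 of the class sum without TMM scaling, as mean ± SD over the 4 libraries of both groups, so that the SD includes any difference between groups. Egr1 was highest in collecting duct principal cells (433 ± 59.4), followed by B cells (325 ± 38.8) and endothelium (262 ± 113), and lowest in proximal tubule (2.59 ± 1.63). By group, Egr1 in endothelium was at 171 and 158 under BPTES and at 347 and 371 under DMSO, beside 328 and 270 against 343 and 358 in B cells, so the order of these classes was not the same in each group. The collecting duct libraries did not overlap with those of B cells. From B cells through endothelium, innate lymphoid cells, neutrophils and macrophages to dendritic cells, each class overlapped with the next. Dendritic cells did not overlap with monocytes, the class after them. Fos was highest in neutrophils (2242 ± 203) and lowest in proximal tubule (14.1 ± 10.4). Junb was as high in neutrophils (2847 ± 230) as in innate lymphoid cells (2839 ± 336) within their spread, and lowest in proximal tubule (11.6 ± 4.29). Atf3 was highest in monocytes (744 ± 105) and dendritic cells (732 ± 38.1), whose ranges overlapped, and Nr4a1 in neutrophils (682 ± 65.5). Jun was the one of the 10 for which endothelium ranked second, at 1300.1 ± 278 beside 1440 ± 332 in innate lymphoid cells. Of the 11 neighbouring pairs in each gene's order, only 3 to 5 had ranges that did not overlap. Most neighbouring classes thus did not differ beyond their spread.

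**Figure D1:**
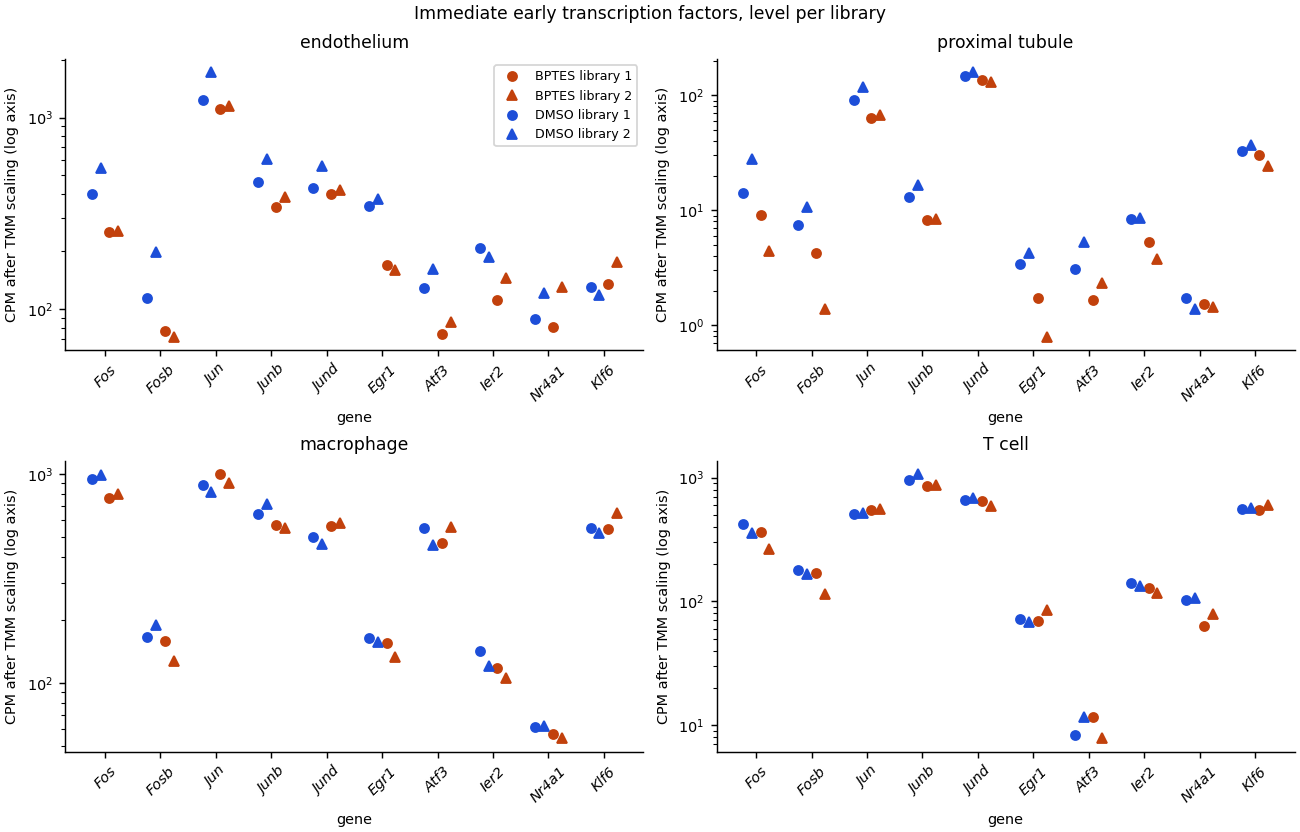
Level of the 10 genes in endothelium, proximal tubule, macrophages and T cells, in CPM after TMM scaling on a log axis, with 1 point per library (BPTES orange, DMSO blue; circles library 1, triangles library 2). In endothelium Egr1 was at 170 and 160 CPM under BPTES and at 344 and 374 under DMSO, and macrophage points of the groups lay closer together.

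In endothelium Egr1 and Atf3 were called lower under BPTES. Egr1 (ENSMUSG00000038418), the zinc finger factor that fluid shear and growth factors induce in vessels, was at 170 and 160 CPM under BPTES and at 344 and 374 CPM under DMSO. The BPTES level was 46.0% of the DMSO level, with a log2 fold change of -1.12 ± 0.09 (SE, n = 2 against 2, edgeR adjusted p = 0.000522). Atf3 (ENSMUSG00000026628), the stress-induced partner of AP-1 proteins, was at 73.8 and 85.7 CPM under BPTES and at 129 and 161 CPM under DMSO. Its log2 fold change was -0.87 ± 0.12 (SE, n = 2 against 2, edgeR adjusted p = 0.0241). These 2 of 10 genes were called in a class in which 0.747% of 13118 genes were called, and 0.389% were called lower. The Egr1 call held under every alternative run for endothelium, whereas Atf3 was not called without BPTES library 1 (-0.76), with predicted doublets kept (-0.90), at Leiden resolution 2 (-0.89) or without the largest endothelial cluster (-1.36).

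The AP-1 subunits had lower values in the BPTES libraries of endothelium without being called. Fos (ENSMUSG00000021250), the inducible AP-1 subunit, was at 253 and 255 CPM under BPTES and at 397 and 545 under DMSO, a log2 fold change of -0.89 ± 0.15 (edgeR adjusted p = 0.0632). Ier2 was at 112 and 144 CPM under BPTES and at 208 and 187 under DMSO (-0.63 ± 0.12, edgeR adjusted p = 0.0661). Junb, which pairs with Fos and restrains Jun, was at 343 and 383 CPM against 458 and 605 (-0.55 ± 0.14, edgeR adjusted p = 0.145). In each of these genes both BPTES libraries lay below both DMSO libraries, and DMSO library 2 was the highest library for Fos and Junb. Fosb (-1.08 ± 0.36), Jun (-0.39 ± 0.16) and Jund (-0.27 ± 0.12) also had non-overlapping groups. In all, 8 of the 10 genes had both BPTES libraries below both DMSO libraries, as did 22.4% of all genes of the class. At an unadjusted p under 0.05, 7 of the 10 were lower, against 6.1% of all genes. Klf6 was the 1 gene with higher values in both BPTES libraries, at 135 and 175 CPM against 130 and 118 (0.32 ± 0.13, edgeR adjusted p = 0.373). Nr4a1 overlapped between groups, at 80.3 and 130 CPM against 88.6 and 121 CPM.

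In proximal tubule Junb (ENSMUSG00000052837) was called. It was at 8.25 and 8.32 CPM under BPTES and at 13.1 and 16.5 CPM under DMSO, with 734 to 1593 UMIs per library. The BPTES level was 56.0% of the DMSO level, a log2 fold change of -0.84 ± 0.12 (SE, n = 2 against 2, edgeR adjusted p = 0.0441), in a class with 0.479% of 15870 genes called and 0.302% called lower. The call lies just under the threshold, and was absent with RLE scaling (-0.83), without BPTES library 2 (-0.84), with predicted doublets kept (-0.61) and without cluster 5 or cluster 9. The value itself stayed between -0.99 and -0.61 under all alternatives run for proximal tubule.

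The other inducible genes were low in proximal tubule in both groups, with lower values under BPTES that were not called. Egr1 was at 1.74 and 0.793 CPM under BPTES and at 3.39 and 4.25 CPM under DMSO, which rests on 202, 70, 376 and 411 UMIs (-1.57 ± 0.34, edgeR adjusted p = 0.105). Fos was at 9.08 and 4.44 CPM against 14.2 and 28.1 CPM (-1.63 ± 0.56, edgeR adjusted p = 0.258), and DMSO library 2 was the highest. Jun (ENSMUSG00000052684), the main AP-1 partner of Fos, was at 63.7 and 66.9 CPM against 90.5 and 118 CPM (-0.67 ± 0.13, edgeR adjusted p = 0.072). These 3 genes had no overlap between groups, and BPTES library 2 was the lowest for Fos and Egr1. Ier2 was at 5.34 and 3.76 CPM against 8.43 and 8.61 (-0.90 ± 0.17, edgeR adjusted p = 0.0646), and Atf3 was at 1.65 and 2.33 CPM against 3.10 and 5.33 (-1.08 ± 0.29, edgeR adjusted p = 0.129). Fosb was at 4.25 and 1.37 CPM against 7.45 and 10.6 CPM, Jund at 135 and 131 against 148 and 158 CPM, and Klf6 at 30.5 and 24.4 against 33.1 and 36.9 CPM, none of them called. Both BPTES libraries lay below both DMSO libraries for 9 of the 10 genes, as for 28.9% of all genes of the class. At an unadjusted p under 0.05, 6 of the 10 were lower, against 8.64% of all genes. The gene with overlapping groups was again Nr4a1, at 1.53 and 1.45 CPM against 1.71 and 1.40 CPM.

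Other measures of the same cells are given beside these values. The median mitochondrial share per cell was 16.3% and 21.8% under BPTES and 12.1% and 15.8% under DMSO, whereas in endothelium it lay between 1.52% and 1.67% in all 4 libraries. At a 25% mitochondrial limit the Junb call was kept. Summed levels of 73 leukocyte markers in proximal tubule were 576 and 593 CPM under BPTES and 601 and 606 CPM under DMSO, 4 of 61 tested markers were called lower, and Mcpt8, Il13 and Il5 were at 0. All 4 are on the macrophage list, where they make up 4 of 8 genes, against 0.302% of all genes called lower in the class. That list summed to 359 and 404 CPM under BPTES and 356 and 385 under DMSO, and the groups overlapped. Summed levels of the 9 endothelial markers in proximal tubule were 10.1 and 6.25 CPM under BPTES and 11.7 and 12.7 CPM under DMSO, with none of 9 called and none at 0. In endothelium the leukocyte markers summed to 3387 and 3301 CPM under BPTES and 3379 and 3479 under DMSO, with 1 of 30 tested called lower and Mcpt8, Cpa3, Ms4a2, Fcer1a and Il13 at 0. The called marker is on the monocyte list, which summed to 224 and 198 CPM under BPTES and 305 and 351 under DMSO. The mast cell and basophil list lay the other way, at 93.3 and 98.3 against 84.6 and 72.7 CPM, as did the B cell list. The macrophage list held the largest part of the total, at 1556 and 1573 against 1588 and 1581 CPM. The marker sums of this paragraph are without TMM scaling. The part of mitochondrial share and of transcripts from other cells in the proximal tubule values was not tested.

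**Figure D2:**
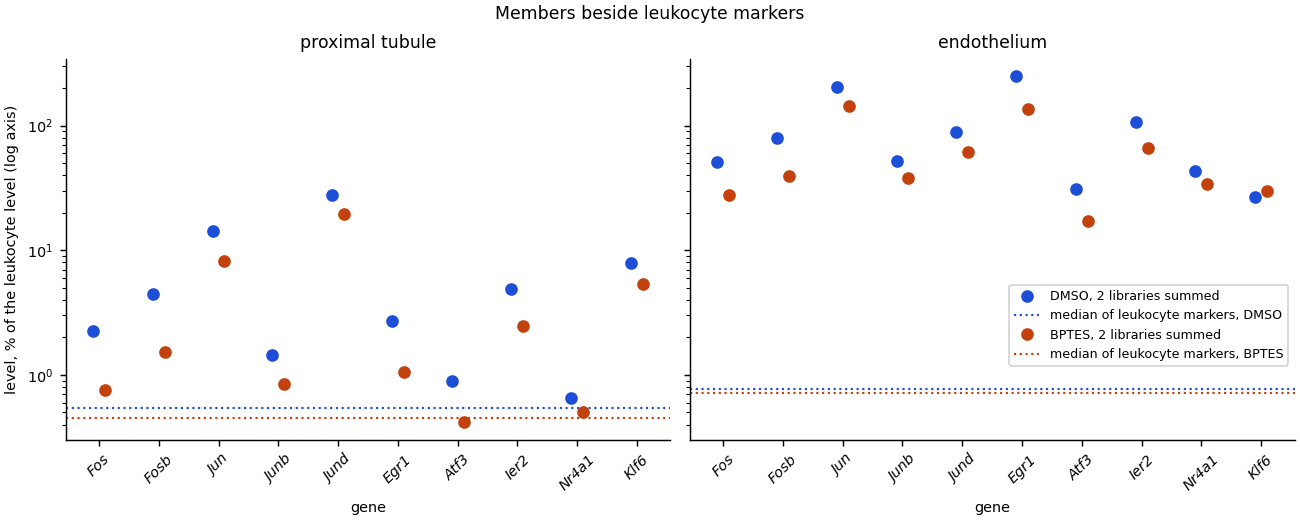
Level of each gene in proximal tubule and endothelium as a percentage of its level in the CD45-positive classes without plasma cells, on a log axis, with the UMIs of the 2 libraries of a group summed (BPTES orange, DMSO blue). Dotted lines give the median of 73 leukocyte markers, 0.455% under BPTES and 0.538% under DMSO in proximal tubule. Atf3 and Nr4a1 lie nearest to these lines in proximal tubule, and the endothelial points lie far above them.

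RNA released from other cells gives every class a low level of genes it does not express, so levels in tubule were set beside those of leukocyte markers. In proximal tubule the median leukocyte marker reached 0.455% of its leukocyte level under BPTES and 0.538% under DMSO. Nr4a1 stood at 0.506% and 0.647% and Atf3 at 0.417% and 0.888%, with 29 and 39 of 73 markers at least as high under BPTES. Junb stood at 0.852% and 1.45%, with 19 and 16 markers at least as high under BPTES and DMSO, Fos at 0.753% and 2.25% (20 and 14 markers), and Egr1 at 1.05% and 2.68% (16 and 13). Jun stood at 8.12% and 14.2% (6 and 7 markers), and Jund at 19.6% and 27.8% (4 and 6). In both groups at least 13 of the 73 markers thus stood as high as Nr4a1, Atf3, Fos, Egr1 and the called Junb in proximal tubule, and at most 7 as high as Jun or Jund. The part of such RNA in the proximal tubule differences was not tested. Endothelial levels were between 17.1% (Atf3 under BPTES) and 248% (Egr1 under DMSO), where the marker median was 0.712% and 0.773%.

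The endothelial difference in Egr1 was also present in the share of cells. Egr1 UMIs were found in 37.1% and 33.5% of endothelial cells under BPTES and in 47.7% and 51.5% under DMSO. With each cell thinned to 1000 UMIs, the shares were 10.98% and 9.66% under BPTES and 19.1% and 19.6% under DMSO, and 1 of 3078 cells was too shallow to be thinned. In proximal tubule, the class with the lowest Egr1 level, the thinned shares were 0.147% and 0.143% against 0.264% and 0.307%. The class is no blank, because it may express the gene. Endothelial cells had a median of 10872 and 10852 UMIs under BPTES and of 11179 and 13009 under DMSO.

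**Figure D3:**
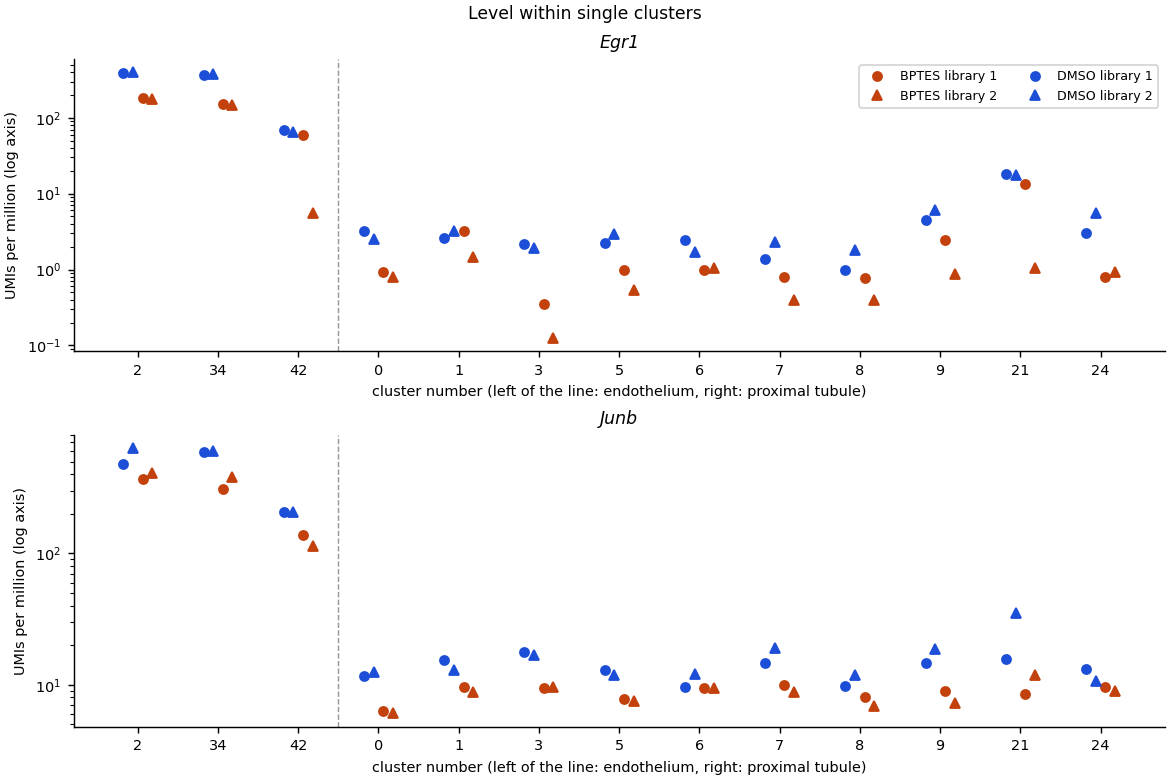
Egr1 and Junb per cluster in UMIs per 1000000 (log axis), with 1 point per library (BPTES orange, DMSO blue; circles library 1, triangles library 2), for the 3 endothelial clusters left of the dashed line and, right of it, the 10 of 12 proximal tubule clusters with at least 30 cells in every library. Junb lay lower in both BPTES libraries in every cluster shown, and Egr1 in all but cluster 1.

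The same direction was found within single clusters, where cluster sizes do not enter the value. Each cluster value is a sum of raw UMIs per library, given as a description with no test, and clusters needed at least 30 cells in every library, which left out 2 of the 12 proximal tubule clusters (52 and 54, with 55 and 16 cells). Cluster 40 also scored best for proximal tubule but stayed unnamed, so its cells are in no reported proximal tubule value. It held 21 and 19 cells under BPTES and 110 and 93 under DMSO, and C3, Spp1 and Havcr1 were among its leading genes. Egr1, Fos, Junb, Atf3 and Ier2 were lower in both BPTES libraries than in both DMSO libraries in 3 of 3 endothelial clusters, as were 1.6% of the 13118 genes tested in endothelium. In the largest, cluster 2 with 2512 cells, Egr1 was at 185 and 177 UMIs per 1000000 under BPTES and at 388 and 397 under DMSO. In the smallest, cluster 42 with 200 cells, it was at 59.6 and 5.61 against 69.4 and 64.3, where the value of BPTES library 2 rests on 3 UMIs. Klf6 was higher without overlap in 2 of the 3 clusters, as were 10.4% of all genes. In 2 further clusters that scored best for endothelium but stayed unnamed, the values differed. In cluster 19, with 877 cells and a median of 1528 UMIs per cell, Egr1 overlapped between groups (85.3 and 155 against 137 and 247 UMIs per 1000000), as did Ier2, whose ratio of means was 1.08. In cluster 27, with 476 cells, both were lower without overlap. Among the 10 proximal tubule clusters, Junb was lower without overlap in 10, Egr1, Fos and Ier2 in 9, Atf3 in 7, Fosb in 6 and Jun in 5, whereas Jund was lower in 3 and higher in 3. Of the 15870 genes tested in proximal tubule, 0.239% were lower without overlap in 10 of 10 clusters, 0.605% in at least 9, 2.9% in at least 7, 5.47% in at least 6, 10.3% in at least 5 and 33.6% in at least 3, and 27.8% were higher in at least 3. The ratio of BPTES to DMSO means for Junb ran from 0.400 to 0.866 over these clusters, and that for Egr1 from 0.114 to 0.813. Junb was thus lower in each of the 10 proximal tubule clusters looked at, by unequal amounts. The Jun ratio was 0.346 in cluster 9, 0.652 in cluster 21, 0.538 in cluster 24 and 0.696 in cluster 5, but between 0.832 and 1.12 in clusters 0, 1, 3, 6, 7 and 8. Cluster 21 held 164 and 74 cells under BPTES and 267 and 253 under DMSO, and 2079, 726, 3435 and 4755 Jun UMIs in that order. It also held 278 and 35 Fos UMIs under BPTES and 506 and 1425 under DMSO, so the class sums of Jun and Fos in proximal tubule rest in part on a small cluster whose size differed between groups. Without cluster 21 the class values were -0.41 for Jun (edgeR adjusted p = 0.108) and -1.20 for Fos (0.127). Junb stayed called without it (-0.78, edgeR adjusted p = 0.0202), and Egr1 became called (-1.44, 0.0283).

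None of the 10 genes was called in the 6 leukocyte classes in the reported fits. With low counts unfiltered some were called in T cells, macrophages, dendritic cells and neutrophils, and with DESeq2 in macrophages and neutrophils. More of all genes were called in these classes under those settings as well. Macrophages had 1.92% of 13730 genes called, dendritic cells 5.78% of 13600, T cells 0.163% of 12886 and monocytes 0.254% of 12578. B cells (11394 tested) and neutrophils (9973 tested) had 0% called, with 1395 and 915 genes at an unadjusted p under 0.05, while DESeq2 called 151 and 38. Macrophage Fos was at 768 and 802 CPM under BPTES and at 944 and 986 CPM under DMSO (-0.30 ± 0.08, edgeR adjusted p = 0.1001), and Junb was at 568 and 549 against 641 and 714 CPM (-0.28 ± 0.09, edgeR adjusted p = 0.129). Macrophage Jund, the AP-1 subunit that is expressed constitutively in most cells, was at 565 and 580 CPM against 501 and 463 CPM (0.25 ± 0.09, edgeR adjusted p = 0.145). In macrophages 6 of the 10 genes had both BPTES libraries below both DMSO libraries, as did 27.6% of all genes of the class, and 2 had them above. In T cells Nr4a1, which T cell receptor signals induce, was at 62.9 and 79.2 CPM under BPTES and at 103 and 106 under DMSO (-0.55 ± 0.11, edgeR adjusted p = 0.118). Neutrophil Egr1 was at 114 and 68.9 CPM against 152 and 308 CPM (-1.33 ± 0.39, edgeR adjusted p = 0.434), and DMSO library 2 was the highest library. At Leiden resolution 2 a neutrophil cluster led by Il1rn and Cxcl2 held 32 and 23 cells under BPTES and 40 and 181 under DMSO. The part of this cluster in the neutrophil Egr1 value was not tested. The other T cell genes had log2 fold changes from -0.31 (Fos) to 0.14 (Egr1), and Junb, Jund and Ier2 also had both BPTES libraries below both DMSO libraries. With Nr4a1 these were 4 of 10, beside 25.1% of all T cell genes. In dendritic cells the 10 values ran from -0.26 (Fosb) to 0.14 (Jun), and Junb was at 998 and 918 CPM against 1053 and 1196 CPM (-0.23 ± 0.08, edgeR adjusted p = 0.122). In monocytes they ran from -0.49 (Egr1) to 0.29 (Klf6), and Egr1, at 84.4 and 47.6 CPM against 68.2 and 121 CPM, overlapped between groups. B cells ranged from -0.23 (Fos) to 0.33 (Jund), with Jund at 913 and 954 CPM against 764 and 723 CPM (0.33 ± 0.10, edgeR adjusted p = 0.341). Apart from Egr1, the neutrophil values ran from -0.20 (Junb) to 0.40 (Jund). Some of these uncalled leukocyte values were thus as far from 0 as those of Junb and Jun in endothelium, which were not called either. Median log2 fold changes over the 10 genes lay between -0.16 and 0.08 in the 6 leukocyte classes, at -0.59 in endothelium and at -0.87 in proximal tubule. Medians over all genes tested lay between -0.02 and 0.00 in these 8 classes. The difference in effect between the classes was tested as described next.

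**Figure D4:**
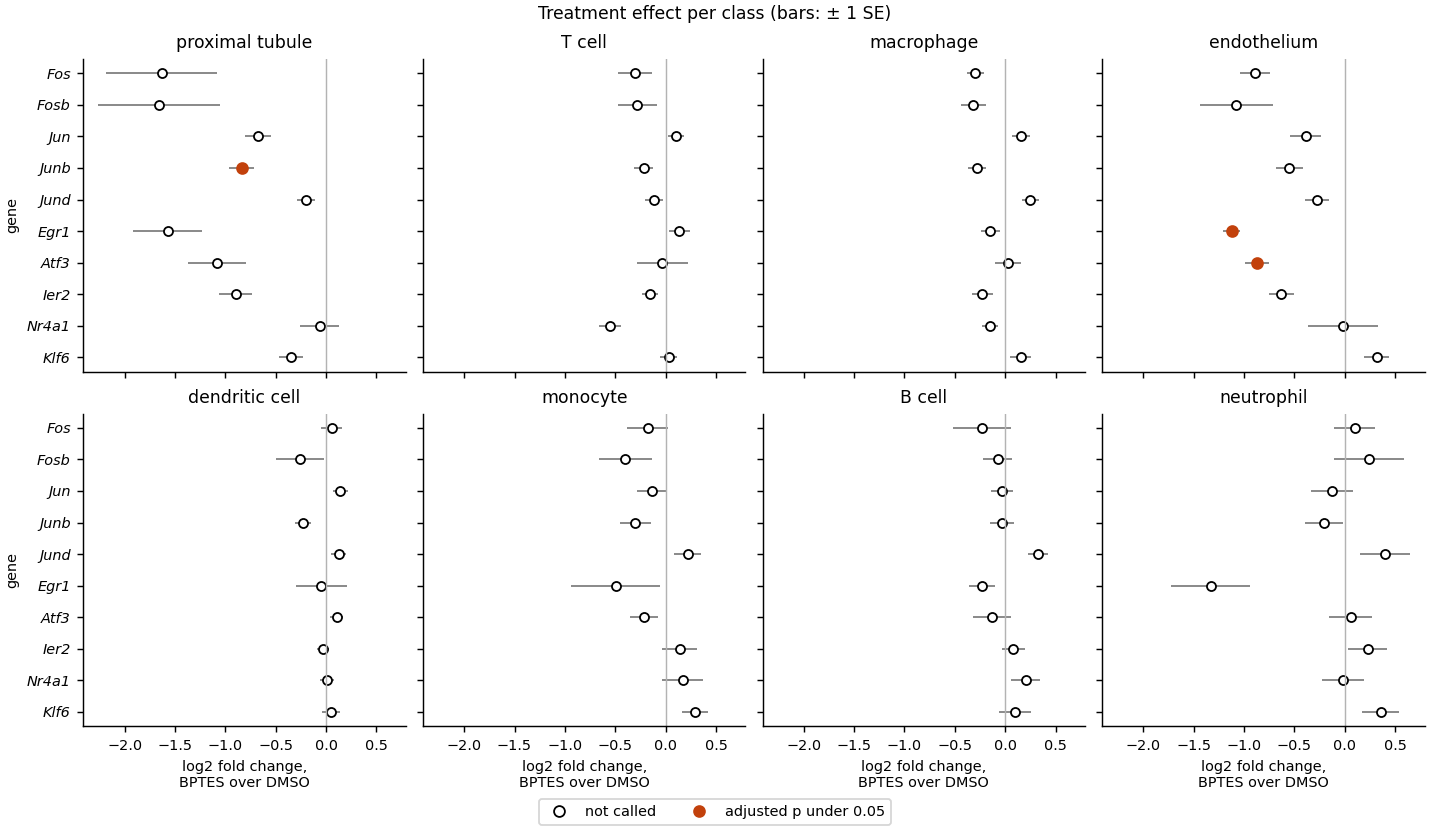
Log2 fold change of BPTES over DMSO for the 10 genes in each of the 8 tested classes, with bars of ± 1 SE and filled points for an adjusted p under 0.05. Called genes are Egr1 and Atf3 in endothelium and Junb in proximal tubule, and no leukocyte point is filled. Leukocyte points other than Egr1 in neutrophils (-1.33) lie between -0.55 (Nr4a1 in T cells) and 0.40 (Jund in neutrophils).

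The treatment effect was compared between classes in 1 model with the library as a block, so that the difference was measured within each library. The class sums of a library entered this model as separate values, although they are not replicates. A shift shared by all classes of a sorted fraction in a library is not removed by the block. The p-values of this joint model may therefore be too small. The average effect in proximal tubule and endothelium was lower than the average effect in the 6 leukocyte classes for 6 of the 10 genes, where 0.701% of 16972 genes were called and 0.489% were called lower. The difference of log2 fold changes was -1.14 ± 0.24 for Fos (edgeR adjusted p = 0.0377), -1.04 ± 0.22 for Egr1 (0.0415) and -0.97 ± 0.19 for Atf3 (0.0254). It was -0.80 ± 0.14 for Ier2 (edgeR adjusted p = 0.0124), -0.57 ± 0.11 for Jun (0.0219) and -0.51 ± 0.09 for Junb (0.0167). These 6 genes cover AP-1 subunits, Egr1, Atf3 and Ier2, and each difference was negative. Fosb (-1.23 ± 0.28, edgeR adjusted p = 0.0520) and Jund (-0.47 ± 0.13, 0.0876) were not called, and Nr4a1 (-0.02 ± 0.18) and Klf6 (-0.21 ± 0.12) were nearer to 0. The calls of the 6 genes were lost without BPTES library 1 or without BPTES library 2, and some were lost without DMSO library 2. In these refits 1 group holds 1 library, and the number called over all genes changed as well. The differences of the 6 genes stayed negative, between -1.43 and -0.49 without BPTES library 1 and between -1.14 and -0.54 without BPTES library 2. Without DMSO library 1 the call of Egr1 was lost (-0.98). With no low-count filter Fos, Egr1 and Atf3 were not called, at -1.13, -1.04 and -0.97, and Atf3 was not called at Leiden resolution 2 (-0.92).

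**Figure D5:**
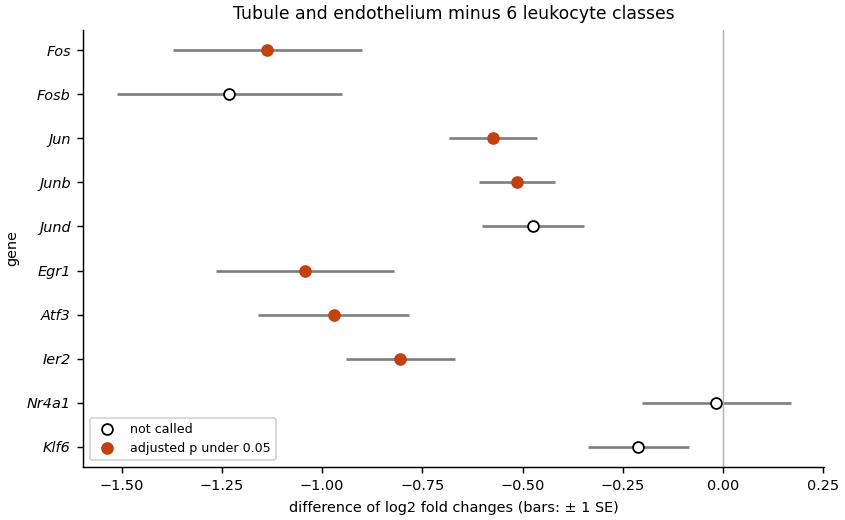
Difference between the treatment effect in proximal tubule and endothelium and that in 6 leukocyte classes for each of the 10 genes, in log2 units with bars of ± 1 SE, filled for an adjusted p under 0.05. The 6 filled points lie between -1.14 (Fos) and -0.51 (Junb), and Nr4a1 lies at -0.02.

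Pairs of classes gave fewer calls. The endothelial effect on Egr1 was lower than that of macrophages by a difference of -0.98 ± 0.12 (edgeR adjusted p = 0.0158), with 0.192% of 15080 genes called and 0.0597% called lower, and than that of T cells by -1.26 ± 0.14 (edgeR adjusted p = 0.0268), with 0.0273% of 14656 genes called and 0.0136% called lower. In both pairs Egr1 was the 1 called gene among the 10. Without BPTES library 2 neither was called, at -1.03 and -1.05. The macrophage pair was also not called without BPTES library 1 (-0.93), nor the T cell pair with predicted doublets kept (-1.39). Proximal tubule set against macrophages had 0 of 10 called, with the lowest adjusted p for Jun (-0.76 ± 0.18, edgeR adjusted p = 0.0572), and 1.35% of 17287 genes called. Of the genes called there, 62.0% were higher in proximal tubule with TMM and 40.7% with RLE scaling, under which 2 of the 10 were called. Proximal tubule against T cells had 0 of 10 called, with a lowest edgeR adjusted p of 0.153 and 0.00581% of 17197 genes called. At an unadjusted p under 0.05, 7 of the 10 in the macrophage pair and 8 of the 10 in the T cell pair were lower in proximal tubule, against 5.21% and 4.24% of all genes. Endothelium against proximal tubule had 0 of 10 called, at 0.378% of 17197 genes, of which 70.8% were higher in endothelium with TMM and 81.9% with RLE scaling, and Klf6 had the lowest adjusted p (0.63 ± 0.20, edgeR adjusted p = 0.263).

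Of 3 further tubule classes, chosen for testing once their cell numbers were known, 2 had Atf3 called lower. In thick ascending limb cells, Atf3 was at 24.7 and 15.9 CPM under BPTES and at 50.0 and 62.8 under DMSO, on 24 to 318 UMIs per library (-1.45 ± 0.25, edgeR adjusted p = 0.0146). It was the 1 called of 9 genes tested, and 0.222% of 10800 genes were called, 0.167% lower. In collecting duct principal cells it was at 32.4 and 26.4 CPM against 63.2 and 64.0 CPM (-1.10 ± 0.17, edgeR adjusted p = 0.0418), the 1 called of 10, with 0.344% of 11034 genes called and 0.299% called lower. The thick ascending limb call was absent without DMSO library 2 (-1.25), at a 25% mitochondrial limit (-1.15) and with predicted doublets kept (-0.97). The collecting duct call was absent without BPTES library 2 (-0.98) and under 6 other alternatives of the 12 run, with values down to -1.58. Egr1 in collecting duct principal cells was not called, at 516 and 443 CPM under BPTES and 393 and 391 under DMSO (0.29 ± 0.14, edgeR adjusted p = 0.415). Connecting tubule, with 7 of the 10 tested, and innate lymphoid cells, with 10 tested, had none called, against 0.325% of 7084 and 0.494% of 8906 genes. The name connecting tubule rests on a narrow margin, a marker score of 2.95 beside 2.81 for the next list. Log2 fold changes ran from -0.38 to 0.38 in connecting tubule, from -0.73 to 0.43 in innate lymphoid cells, from -1.45 to 0.33 in thick ascending limb and from -1.10 to 0.32 in collecting duct principal cells. Atf3 was therefore called lower in endothelium and in 2 tubule classes, and these classes share the same 4 libraries. Median mitochondrial shares in thick ascending limb cells were 11.8% and 12.1% under BPTES and 6.23% and 9.11% under DMSO, and their part in the Atf3 value was not tested.

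Summed over whole compartments, none of the 10 was called. In the CD45-negative sum, 0% of 18137 genes were called with edgeR, 1882 had an unadjusted p under 0.05, and DESeq2 called 379 genes, 4 of them among the 10. At an unadjusted p under 0.05, 6 of the 10 were lower there, against 6.02% of all genes. Ier2 had the lowest p of the 10, with 20.02 and 18.0 CPM under BPTES and 29.2 and 38.3 CPM under DMSO (-0.83 ± 0.16, edgeR adjusted p = 0.475). In the CD45-positive sum without plasma cells, 3.42% of 16908 genes were called, and the largest difference among the 10 was that of Egr1 (-0.28 ± 0.19, edgeR adjusted p = 0.425). Such sums also move with the numbers of each cell type.

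Other immediate early transcription factors, a list of 14 genes, gave few calls. Of all genes, 0.747% were called in endothelium, 0.479% in proximal tubule, 1.92% in macrophages and 0.163% in T cells. In endothelium 1 of 13 tested was called lower, Egr3, the close relative of Egr1, at 3.50 and 5.34 CPM under BPTES and 10.6 and 11.8 under DMSO (-1.40 ± 0.24, edgeR adjusted p = 0.0322). In proximal tubule 1 of 11 was called lower, Ier5, at 7.60 and 5.84 CPM against 12.1 and 12.7 (-0.88 ± 0.13, edgeR adjusted p = 0.0471). Macrophages also had 1 of 13 called lower, again Egr3 (-1.40 ± 0.25, edgeR adjusted p = 0.0435), and T cells had 1 of 13, Nr4a2, the nuclear receptor next of kin to Nr4a1 (-0.56 ± 0.07, edgeR adjusted p = 0.0374). In dendritic cells, where 5.78% of all genes were called, 5 of 14 were called lower, among them Egr2 (-1.11 ± 0.14) and Maff (-0.91 ± 0.14), and 1 higher, Myc (0.73 ± 0.10). In the CD45-positive sum Egr2 (-0.9995 ± 0.13) and Nr4a2 (-0.48 ± 0.07) were called lower and Klf2 higher (0.55 ± 0.10). Egr3 was thus called lower in both macrophages and endothelium. The median log2 fold change of the tested genes of this list was -0.81 in proximal tubule and -0.39 in endothelium, and -0.40 in macrophages.

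Feedback inhibitors, 17 genes that shut the response down, gave 1 call in proximal tubule and none in endothelium. In proximal tubule 1 of 17 was called lower, Zfp36, which destabilises immediate early and cytokine mRNAs, at 11.5 and 13.4 CPM under BPTES and 20.6 and 24.7 under DMSO (-0.87 ± 0.12, edgeR adjusted p = 0.0409). With it, 13 of 17 were lower at an unadjusted p under 0.05, against 8.64% of all genes, and the list's median was -0.48. In endothelium 0 of 17 were called, 7 were lower, against 6.1% of all genes, and 1 higher at an unadjusted p under 0.05, and the median was -0.39. Socs3, which silences cytokine receptors, was called lower in macrophages, at 45.3 and 44.0 CPM against 84.6 and 101 (-1.06 ± 0.10, edgeR adjusted p = 0.0112), and in thick ascending limb cells, at 2.98 and 1.99 CPM against 44.9 and 48.6 (edgeR adjusted p = 8.97e-06). Gadd45b was called lower in monocytes (-0.81 ± 0.10, edgeR adjusted p = 0.0475) and in dendritic cells (-0.71 ± 0.14, edgeR adjusted p = 0.0495). Dusp6, a phosphatase that inactivates ERK, was called higher in dendritic cells (0.39 ± 0.09, edgeR adjusted p = 0.0446).

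Known targets of AP-1 and EGR1, a list of 12 genes, included Vcam1, Cyr61 and Ccl2. Vcam1, the leukocyte adhesion molecule, was called lower in endothelium, at 159 and 139 CPM under BPTES and 262 and 349 under DMSO (-1.03 ± 0.15, edgeR adjusted p = 0.0416). It was also called lower in proximal tubule, at 0.232 and 0.261 CPM against 1.47 and 2.46 (-2.99 ± 0.32, edgeR adjusted p = 0.0228), in macrophages (-0.72 ± 0.10) and in dendritic cells (-1.30 ± 0.21). Endothelial Cyr61, a matricellular gene, was at 48.3 and 56.3 CPM against 78.5 and 75.8 (-0.57 ± 0.09, edgeR adjusted p = 0.0262). Macrophage Ccl2, the monocyte chemoattractant, was at 30.8 and 23.9 CPM against 121 and 174 (-2.43 ± 0.24, edgeR adjusted p = 0.0391). In all, 2 of 11 tested targets were called lower in endothelium, 1 of 11 in proximal tubule, 2 of 10 in macrophages and 3 of 12 in dendritic cells, and none higher in these 4 classes. The shares of all genes called lower there were 0.389%, 0.302%, 1.34% and 2.99%. At an unadjusted p under 0.05, 3 of the 11 endothelial targets were lower, against 6.1% of all genes, and 2 higher, with a median of -0.21 over the list. In proximal tubule 6 of 11 were lower, against 8.64% of all genes, and 0 higher, with a median of -0.64. In macrophages 6 of 10 were lower and 0 higher (median -0.69), and 3131 of 13730 genes had such a p in either direction. In dendritic cells 4 of 12 were lower and 1 higher (median -0.48), beside 3434 of 13600 genes in either direction. The dendritic cell calls were Timp1 (-2.18 ± 0.37), Il6 (-1.98 ± 0.41) and Vcam1. The 8 macrophage markers were also at lower sums, without TMM scaling, in other leukocyte classes. In dendritic cells their total was 3173 and 3733 CPM under BPTES and 4786 and 6983 CPM under DMSO, and 2 of the 8 were called lower. In monocytes they summed to 6149 and 4913 CPM against 12155 and 9054, with 3 of 8 called lower, and in T cells to 87.9 and 90.5 against 191 and 281, with 1 of 8. None of the 8 was at 0, and the part of macrophage transcripts in the calls of the 3 lists in dendritic cells, monocytes and T cells was not tested. In innate lymphoid cells Icam1, another adhesion molecule, was called lower (-1.61 ± 0.26, edgeR adjusted p = 0.0216). In the CD45-positive sum Timp1 was called lower (-2.61 ± 0.33, edgeR adjusted p = 0.0323), and Plaur, the urokinase receptor, was called higher (0.41 ± 0.07, edgeR adjusted p = 0.0403). Vcam1 was called lower in 4 classes, including leukocyte classes in which none of the 10 factors was called in the reported fits. Its proximal tubule level was far below that of endothelium, and the part of RNA from other cells was not tested. At Leiden resolution 2 Vcam1 was a leading gene of a macrophage cluster with 40 and 24 cells under BPTES and 134 and 33 under DMSO. The part of this cluster's size in the macrophage value was not tested.

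Genes upstream of the response, genes of the heat shock response and mitochondrial transcripts were also read. Of the 14 kinases and constitutive factors that act upstream, 0 were called in proximal tubule or endothelium, and the list's medians were 0.09 and 0.03. At an unadjusted p under 0.05, 5 of them were higher and 0 lower in proximal tubule, and 0 higher and 1 lower in endothelium. Creb1 was called higher in dendritic cells (0.30 ± 0.07, edgeR adjusted p = 0.0473). Of the 11 heat shock genes 0 were called in proximal tubule, endothelium or macrophages, and Dnajb1 was called higher in dendritic cells (0.94 ± 0.13, edgeR adjusted p = 0.0217). At an unadjusted p under 0.05, 8 were higher in B cells, 7 in monocytes, 6 in neutrophils and 5 in macrophages. In dendritic cells 4 were higher, in T cells 3, in endothelium 1, and in proximal tubule 3 were higher and 1 lower. Over all genes in either direction, 1395 of 11394 reached this p in B cells, 2493 of 12578 in monocytes and 3131 of 13730 in macrophages. The same counts were 915 of 9973 in neutrophils, 3434 of 13600 in dendritic cells and 1926 of 12886 in T cells. They were 1552 of 13118 in endothelium and 3141 of 15870 in proximal tubule. Heat shock medians were above 0, at 0.25 in proximal tubule, 0.40 in endothelium, 1.00 in macrophages and 0.63 in T cells. They were also above 0 in monocytes (0.78), B cells (0.63), dendritic cells (0.64) and neutrophils (0.62). The heat shock median was thus positive in all 8 classes, and that of the 10 immediate early genes was negative in 6 of them, dendritic cells (0.03) and neutrophils (0.08) being the exceptions. The part of a difference in handling between libraries was not tested. The 13 mitochondrial transcripts had 0 called in proximal tubule and endothelium, with medians of 0.30 and -0.17. In connecting tubule, where 0.325% of all genes were called, 5 of 13 were called higher, among them mt-Cytb (0.30 ± 0.06), mt-Nd4 (0.30 ± 0.06) and mt-Atp6 (0.29 ± 0.06). In thick ascending limb cells, where Atf3 was called lower, 12 of 13 were higher at an unadjusted p under 0.05, against 2.99% of all genes of the class, none was called, and the median was 0.54.

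The genes outside these lists whose profile was most like the mean of the 10 were Nfkbiz (Pearson's r = 0.80), Arrdc3 (0.80), Tuba1c (0.74), Apobec3 (0.72) and Pnrc1 (0.71). The measure was the correlation over 32 points, 8 classes in 4 libraries, after the mean of each class was taken off, among 4424 candidate genes. The points share their 4 libraries, so the values are a description.

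Genes that overlap the 10 on the opposite strand were checked because the sources used here do not say how strand was counted. Prdx2, which overlaps Junb, was at 228 and 200 CPM under BPTES and 249 and 244 under DMSO in proximal tubule (-0.20 ± 0.10, edgeR adjusted p = 0.301), beside -0.84 ± 0.12 for Junb. Junos, antisense to Jun, was at 78.3 and 82.7 CPM against 78.5 and 61.9 in endothelium and overlapped between groups. Reads from these neighbours could not be told apart from those of Junb and Jun if strand was ignored.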

How the data were processed

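Single-cell libraries were made with the 10x Genomics GEM-X 3' kit from sorted kidney cells, 2 libraries per group. The authors deposited unnormalized UMI counts for each gene in each barcode, made with Cell Ranger 8.0.1 on mm10, per the submitters' processing notes, and the annotation and the use of strand are not given in the sources used here. Filters on UMIs (500 or more), genes (300 or more) and the mitochondrial share (50% or less) left 50605 of 76278, and 25273 barcodes (33.1%) were over the mitochondrial limit. A score against simulated doublets (30 components) removed 0.4% of cells per 1000 barcodes, 3867 cells in all. The 46738 remaining cells were clustered on 3000 variable genes, 40 principal components and 15 neighbours (leidenalg 0.10.2, resolution 1), with the 10 genes, the related lists and mitochondrial genes left out. Clusters were named from 26 marker lists (177 genes), and 8 clusters with 4430 cells stayed unnamed.

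Counts were summed per library and class and tested with edgeR 4.0.16 in R 4.3.3 (quasi-likelihood, filterByExpr, TMM, robust, Benjamini-Hochberg adjustment). An SE was derived from the F statistic. Differences between classes were interactions with library as a block. With 2 against 2 libraries an exact permutation test cannot go below p = 0.333, so none was used. On simulated counts edgeR recovered 80% of genes lowered by 1 on the log2 scale in proximal tubule (15682 genes) and 62% in endothelium (12896 genes). The simulation gave every gene the same fixed spread between libraries, so it cannot give the recovery of genes whose libraries spread more widely. The added tdTomato sequence was left out of tests.

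The 10 genes, the lists and the markers were chosen with earlier results of these data known. By the naming rule the text gives the 10 genes, by value in endothelium and proximal tubule and by range with examples in the other classes, and names, in each class, at most 3 genes of every other list, ranked by size of change among called genes whose groups do not overlap. It also gives the 5 genes most like the mean profile among genes whose mean log2 CPM was 5 or more. Alternatives changed the clustering (resolution 2, lists included), the cells (doublets kept, a 25% mitochondrial limit, 1 library left out), and the fit (DESeq2 1.42.0, RLE scaling, a replicate block, low counts unfiltered). Added after seeing the data were 4 further classes, single clusters left out or added, and crossed replicate numbers.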

Additional observations from a re-analysis of the deposited data

Results flagged for a closer look

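Treatment effects differed between classes by a test of the difference itself in 8 cases. Between proximal tubule with endothelium and the 6 leukocyte classes, the difference of log2 fold changes was -1.14 for Fos, -0.57 for Jun, -0.51 for Junb, -1.04 for Egr1, -0.97 for Atf3 and -0.80 for Ier2. This joint comparison treated the class sums of a library as separate values, so its p-values may be too small. For Egr1 the endothelial effect also differed from that of macrophages by -0.98 and from that of T cells by -1.26. None of the 6 was called in the joint comparison without either 1 of the BPTES libraries. With 2 libraries per group, no group was large enough to look for a library far from the others.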

How the results depend on the processing

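Egr1 in endothelium was called under every alternative run. Nr4a1, which was not called in any class in the reported fits, changed sign: in proximal tubule to 0.0753 at a 25% mitochondrial limit and 0.0444 without cluster 6, in endothelium to 0.011 with DESeq2, 0.0012 with unnamed cluster 19 and 0.0399 without cluster 42, and in the joint difference to 0.00190 at a 25% mitochondrial limit. Over the single libraries left out, it ran from -0.20 to 0.098 in proximal tubule, -0.38 to 0.31 in endothelium and -0.14 to 0.087 in the joint difference. Junb in dendritic cells went to 0.000826 without cluster 28. For the other combinations of gene and comparison, 155 of 1440 values under an alternative changed sign, and 0 of these was called. The causes of these changes and of those listed next were not tested.

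The counts changed by over 1.5 times in the cases listed next, from the reported 1 in proximal tubule, 2 in endothelium and 6 in the joint difference. With RLE scaling, called genes among the 10 numbered 0 in proximal tubule and 2 in proximal tubule against macrophage. Of all genes tested, those called numbered 37 in proximal tubule, 53 in monocytes, 1 in B cells and 105 in endothelium against proximal tubule. With no low-count filter, called genes among the 10 numbered 8 in proximal tubule, 1 in T cells, 3 in macrophages, 8 in endothelium, 1 in dendritic cells, 1 in neutrophils, 3 in thick ascending limb, 2 in collecting duct, 2 in innate lymphoid cells, 6 in endothelium against macrophage, 5 in proximal tubule against macrophage, 7 in endothelium against T cell, 4 in proximal tubule against T cell, 3 in endothelium against proximal tubule and 3 in the joint difference. Over every gene tested, calls numbered 1956 in proximal tubule, 486 in T cells, 1903 in macrophages, 666 in endothelium, 1647 in dendritic cells, 1019 in monocytes, 686 in B cells, 318 in neutrophils, 190 in thick ascending limb, 576 in collecting duct, 265 in innate lymphoid cells, 8 in the CD45-negative sum, 1608 in the CD45-positive sum, 554 in endothelium against macrophage, 937 in proximal tubule against macrophage, 408 in endothelium against T cell, 321 in proximal tubule against T cell and 629 in endothelium against proximal tubule. With DESeq2, called genes among the 10 numbered 5 in proximal tubule, 1 in macrophages, 5 in endothelium, 1 in neutrophils, 0 in collecting duct, 4 in the CD45-negative sum and 1 in the CD45-positive sum. Of all genes tested, those called numbered 787 in proximal tubule, 118 in T cells, 504 in macrophages, 330 in monocytes, 151 in B cells, 38 in neutrophils, 379 in the CD45-negative sum and 1817 in the CD45-positive sum. At a 25% mitochondrial limit, called genes among the 10 numbered 0 in thick ascending limb, 0 in collecting duct and 3 in proximal tubule against macrophage. Over every gene tested, calls numbered 387 in monocytes, 1 in B cells, 905 in the CD45-positive sum, 9 in proximal tubule against T cell, 132 in endothelium against proximal tubule and 194 in the joint difference. With predicted doublets kept, called genes among the 10 numbered 0 in proximal tubule, 0 in thick ascending limb, 0 in collecting duct and 0 in endothelium against T cell. Calls over all genes were 22 in proximal tubule, 7 in T cells, 864 in macrophages, 4 in monocytes, 21 in B cells, 3 in neutrophils, 7 in endothelium against macrophage, 2 in proximal tubule against macrophage, 1 in endothelium against T cell, 0 in proximal tubule against T cell and 271 in the joint difference. At Leiden resolution 2, called genes among the 10 numbered 1 in endothelium, 0 in collecting duct and 2 in proximal tubule against macrophage. Of all genes tested, those called numbered 563 in macrophages, 45 in endothelium, 247 in dendritic cells, 61 in monocytes, 151 in the CD45-positive sum, 62 in endothelium against T cell and 19 in proximal tubule against T cell. With the 10 genes and related lists kept in the clustering, called genes among the 10 numbered 0 in collecting duct. Over every gene tested, calls numbered 116 in proximal tubule, 207 in monocytes and 1 in neutrophils.

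Leaving out 1 library at a time, called genes among the 10 numbered 0 to 5 in proximal tubule, 0 to 1 in T cells, 1 to 6 in endothelium, 0 to 1 in dendritic cells, 0 to 4 in neutrophils, 0 to 5 in thick ascending limb, 0 to 1 in collecting duct, 0 to 1 in innate lymphoid cells, 0 to 6 in the CD45-negative sum, 0 to 6 in endothelium against macrophage, 0 to 6 in proximal tubule against macrophage, 0 to 3 in endothelium against T cell, 0 to 3 in proximal tubule against T cell, 0 to 3 in endothelium against proximal tubule and 0 to 7 in the joint difference. Over all genes tested these were 5 to 1871 in proximal tubule, 10 to 361 in T cells, 7 to 1165 in macrophages, 64 to 226 in endothelium, 186 to 1218 in dendritic cells, 0 to 908 in monocytes, 0 to 134 in B cells, 1 to 1804 in neutrophils, 0 to 918 in the CD45-negative sum, 0 to 1584 in the CD45-positive sum, 0 to 702 in endothelium against macrophage, 31 to 692 in proximal tubule against macrophage, 2 to 253 in endothelium against T cell, 0 to 208 in proximal tubule against T cell, 35 to 389 in endothelium against proximal tubule and 0 to 311 in the joint difference. Over all alternatives run, these calls ranged from 11 to 382 in thick ascending limb, 2 to 58 in connecting tubule, 5 to 576 in collecting duct and 3 to 265 in innate lymphoid cells. With a library left out, the remaining library of the shortened group was assumed to vary like the others.

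The labels do not say whether libraries with the same number share more than that number. Their deviations from the group means correlated between -0.12 and 0.40 over classes and sums, with 2 pairs. With the replicate block, called genes among the 10 numbered 4 in proximal tubule, 1 in T cells, 4 in endothelium, 5 in thick ascending limb and 0 in collecting duct. Calls over all genes were 2853 in proximal tubule, 239 in T cells, 912 in macrophages, 150 in endothelium, 1706 in dendritic cells, 2 in monocytes, 472 in B cells, 2 in neutrophils, 309 in thick ascending limb (24 as reported), 5 in collecting duct (38 as reported) and 65 in innate lymphoid cells (44 as reported). With crossed replicate numbers as a block, added for sums with a correlation under -0.1, called genes among the 10 numbered 3 in the CD45-negative sum. Calls over all genes were 212 in monocytes and 1045 in the CD45-negative sum. In endothelium the replicate block kept the calls of Egr1 and Atf3 and added Fos and Junb, and in proximal tubule it kept Junb and added Jun, Atf3 and Ier2.

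At a 25% mitochondrial limit the cluster led by Calb1 and S100g, which lead connecting tubule in the reported clustering, scored best for distal convoluted tubule (2.88 beside 2.85 for the next list) and stayed unnamed, so connecting tubule has no value there. Precision is limited by 2 libraries per group. In proximal tubule Egr1 rests on 70 to 411 UMIs per library, and the part of low counts in the spread was not tested.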
